A study of Mus musculus with 4 samples.

Results

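The genes described here encode 10 heat shock proteins and heat shock regulators of the cytosol and the mitochondria of mouse cells. They were chosen by name, as the entries for Hspa8, Hsp90aa1, Hsp90ab1, Hsph1, Hspd1, Hspe1, Dnaja1, Dnajb1, Hsf1 and Bag3 in the read count tables, and all 10 were found among the 22722 genes listed. The RNA came from MPC11, an established mouse plasmacytoma line, a tumour of antibody-secreting plasma cells. Of 4 cultures, 2 had been transduced with the lentiviral vector pLKO.1 carrying the hairpin shELL2-1C7 against Ell2, an elongation factor for RNA polymerase II (Ell2-KD), and 2 with the same vector carrying a hairpin against GFP (shGFP, the control). Both groups were exposed to virus for 18 h, selected in puromycin for 72 h and grown for another 72 h. A single hairpin in a single line stands for Ell2 loss, and the controls share the vector, the virus and the drug. The labels speak of biological replicates and do not say whether each was transduced on its own, so p-values measure only the spread between these samples, which may be technical.

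Heat shock proteins are chaperones that hold, fold or release other proteins. In the cytosol, HSP70 proteins such as Hspa8 bind short hydrophobic stretches, DNAJ proteins bring them clients and start their ATP cycle, exchange factors such as Hsph1 and Bag3 reset them, and HSP90 proteins take over late-folding clients such as kinases and receptors. In mitochondria, the chaperonin of Hspd1 and Hspe1 encloses imported proteins. The factor Hsf1 switches many of these genes on under stress by binding heat shock elements, arrays of the unit GAA in alternating orientation.

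The promoter sequences are shown because heat shock elements are the feature these genes are known for and because Hspd1 and Hspe1 lie head to head on chromosome 1. RefSeq promoter windows on GRCm38.p6, from 250 bases before to 50 after a gene start, were at hand for 6 of the 10 genes, Hspd1, Hspe1, Hsph1, Dnaja1, Dnajb1 and Bag3. They were searched on both strands for the inverted pairs GAANNTTC and TTCNNGAA, which read the same on both strands and for arrays of 3 units, made of such a pair followed by another unit at the same spacing. Some genes have several windows. A pair occurred in at least 1 window of 5 of the 6 genes, all but Dnajb1, and an array of 3 units in Hspd1, Hspe1 and Hsph1. Of all 32851 windows of the same length, 15.1% held a pair and 0.603% an array of 3 units. These shares count windows and not genes, so the 2 are not like for like. Hspd1 and Dnaja1 also had windows without a pair, and the matches of Hspd1 and Hspe1 are the same stretch. A match is a description of letters and not a measured binding site.
Hspe1, the 250 bases before its start at chr1:55087898-55088147, plus strand, with the paired units in capitals: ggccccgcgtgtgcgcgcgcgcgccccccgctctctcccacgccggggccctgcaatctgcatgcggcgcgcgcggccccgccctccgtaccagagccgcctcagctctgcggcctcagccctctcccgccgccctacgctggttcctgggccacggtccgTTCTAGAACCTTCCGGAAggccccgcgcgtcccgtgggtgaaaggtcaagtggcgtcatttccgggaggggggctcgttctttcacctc
Hspd1, the 30 bases round the same units at chr1:55088053-55088082, minus strand: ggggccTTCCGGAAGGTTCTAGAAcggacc
Hsph1, the 250 bases before its start at chr5:149636337-149636586, minus strand, with a pair in capitals: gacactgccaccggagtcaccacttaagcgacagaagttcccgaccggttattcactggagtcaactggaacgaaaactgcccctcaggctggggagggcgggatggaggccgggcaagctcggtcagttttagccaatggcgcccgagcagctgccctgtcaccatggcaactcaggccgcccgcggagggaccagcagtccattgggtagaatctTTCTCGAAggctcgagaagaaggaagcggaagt
Hsph1, the array of 3 units after the start at chr5:149636287-149636308, minus strand: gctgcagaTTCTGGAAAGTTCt
Dnaja1, the 250 bases before its start at chr4:40722218-40722467, plus strand, with a pair in capitals: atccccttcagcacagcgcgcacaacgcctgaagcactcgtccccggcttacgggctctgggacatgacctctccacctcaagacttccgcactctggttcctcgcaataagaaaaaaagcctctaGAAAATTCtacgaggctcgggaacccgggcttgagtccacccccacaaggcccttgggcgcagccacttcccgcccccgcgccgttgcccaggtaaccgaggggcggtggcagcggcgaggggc
Bag3, the stretch after its start at chr7:128523614-128523632, plus strand, with a pair in capitals: ggatgggaccaGAAGTTTC
The Hspd1 stretch is the Hspe1 stretch read from the other strand. Its capitals form an array of 4 units, which occurred in 5 of the 32851 windows, 2 of them a window of Hspd1 and that of Hspe1.

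The 4 libraries held between 3496471 and 13914488 counts, with the deepest and the shallowest both Ell2-KD. Ell2 had 87.8 and 115 CPM in Ell2-KD libraries, against 938 and 996 CPM in shGFP libraries, where CPM is the count scaled to library depth after TMM normalisation (log2 change -3.25 ± 0.23, SE; edgeR adjusted p = 0.00032). Igj, Xbp1, Irf4 and Sdc1, 4 markers of the labelled cell type, were abundant in every library. Of the 9 plasma cell markers found, only 8 had enough counts to be tested. All 8 tested plasma cell markers had a negative log2 change, and the marker list summed to 17536 and 13812 CPM of library totals in Ell2-KD libraries and 21553 and 16541 CPM in shGFP libraries. Markers of T and NK cells summed to 1.01 to 5.15 CPM and myeloid markers to 1.56 to 4.60 CPM over the 4 libraries. Erythroid and megakaryocyte markers summed to 14.2 and 21.5 CPM in Ell2-KD libraries and 5.17 and 2.55 CPM in shGFP libraries, nearly all of it Itga2b, with Hbb-b1 and Pf4 at 0. Fibroblast and epithelial markers summed to 456 to 634 CPM, nearly all of it Epcam. Their part in the values below was not tested.

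No change of the 10 heat shock genes after Ell2 depletion was called by the test used. All 10 were tested, and 0 passed an adjusted p of 0.05 (edgeR's quasi-likelihood test, Benjamini-Hochberg adjustment over 11027 genes), where 0.0453% of all tested genes passed, 0.00907% higher and 0.0363% lower in Ell2-KD. At an unadjusted p under 0.05 edgeR also gave 0 of the 10, against 5.82% of all tested genes. With DESeq2, 0 of the 10 passed the adjusted threshold, beside 46 of all 11027 genes. At an unadjusted p under 0.05 DESeq2 gave 1 of the 10, Dnaja1, beside 6.25% of all tested genes. Log2 changes ran from -0.58 for Hsf1 to 1.09 for Dnaja1, with 7 positive and 3 negative and a median of 0.28, beside a median of -0.0015 over all tested genes. The 2 libraries of each group did not overlap for 4 of the 10 genes, 2 higher (Hsp90ab1, Hspd1) and 2 lower (Hsph1, Hsf1) in Ell2-KD, a share close to the 35.8% of all tested genes with such a separation. The 95% intervals of 5 genes, Hsp90ab1, Hsp90aa1, Hspd1, Hspa8 and Dnajb1, lay within 1 log2 unit of 0. In RNA of a whole culture, less RNA per cell and fewer cells with the transcript cannot be told apart.

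**Figure D1:**
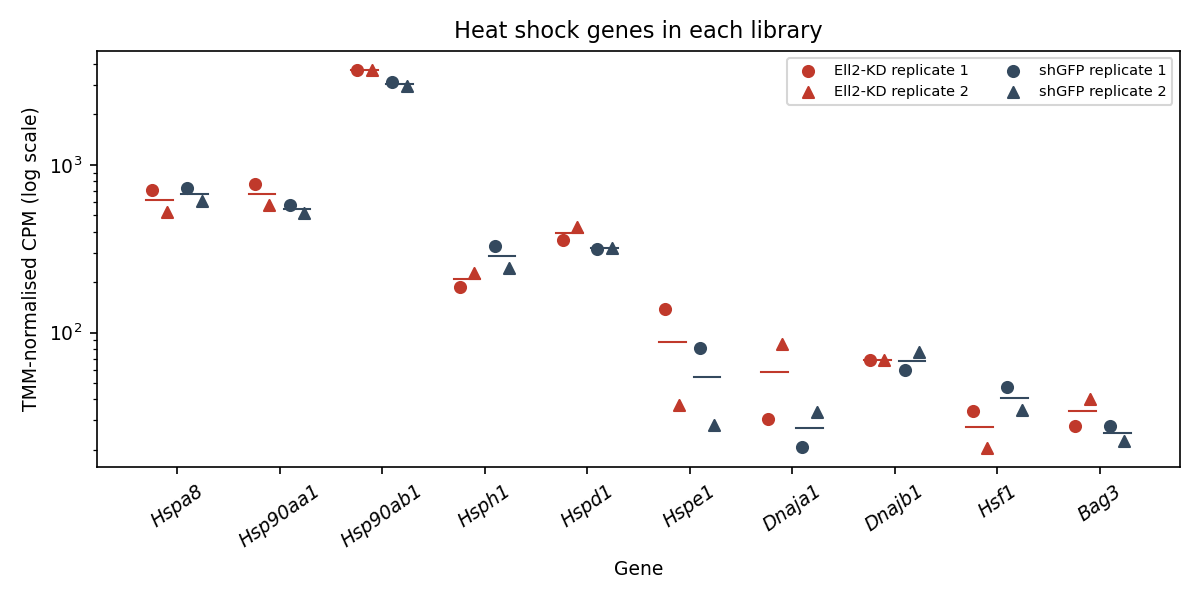
TMM-normalised CPM (log axis) of the 10 heat shock genes in each of the 4 libraries, Ell2-KD in red and shGFP in dark blue, circles for replicate 1, triangles for replicate 2, lines for group means. Hsp90ab1 stands above the rest, and the circles and triangles of Hspe1 lie farther apart than its 2 group means.

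HSP90 was led by its constitutive isoform, and the ratio of its isoforms within a library did not separate the groups. Hsp90ab1, that constitutive isoform, had 3696 and 3669 CPM in Ell2-KD libraries, against 3110.2 and 2972 CPM in shGFP libraries. Both depleted libraries lay above both controls, with means of 3683 ± 19.4 and 3041 ± 97.8 CPM (SD, n = 2 each). The log2 change was 0.28 ± 0.16 (SE; 95% interval -0.083 to 0.64; edgeR adjusted p = 0.906). Hsp90aa1, the more stress-responsive isoform, had 764 and 573 CPM in Ell2-KD libraries and 578 and 516 CPM in shGFP libraries, so that the groups overlapped. Its log2 change was 0.29 ± 0.22 (SE; 95% interval -0.19 to 0.77; edgeR adjusted p = 0.952), and it was 0.074 without Ell2-KD replicate 1 and 0.48 without Ell2-KD replicate 2. Within a library, Hsp90aa1 had 0.207 and 0.156 counts for each count of Hsp90ab1 in Ell2-KD, against 0.186 and 0.174 in shGFP. The depleted libraries stood on either side of the controls, and the mean log2 ratio differed by 0.0013 (exact permutation test over samples, two-sided, p = 1; the smallest p that 2 against 2 allows is 0.333).

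Because Hsp90ab1 supplied 58.7% to 64.7% of all counts of the 10 genes, it set their sum. Together the 10 genes took 0.609% and 0.554% of counts in Ell2-KD libraries, against 0.534% and 0.481% in shGFP libraries. Both depleted libraries were above both controls, by 0.074 percentage points on average, with p = 0.333 in the exact permutation test, the smallest it can give. The difference was 0.0465 points without Ell2-KD replicate 1 and 0.0473 without shGFP replicate 2. In the ER, 19 chaperone genes summed to 20512 and 18673 CPM in Ell2-KD libraries, against 26453 and 22025 CPM in shGFP libraries, so there both depleted libraries were below both controls.

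In the HSP70 system of the cytosol, Hspa8 and Hsph1 had negative log2 changes and Dnaja1, Dnajb1 and Bag3 positive ones. None of these passed. Hspa8, the constitutive HSP70, had 708 and 521 CPM in Ell2-KD libraries, against 732 and 609.6 CPM in shGFP libraries. The groups overlapped, the log2 change was -0.13 ± 0.22 (SE; 95% interval -0.62 to 0.36; edgeR adjusted p = 0.999), and its sign turned to 0.024 without shGFP replicate 1 and to 0.078 without Ell2-KD replicate 2. In the GENCODE M21 annotation, exons of Hspa8 overlap Snord14c, Snord14d and Snord14e on the same strand, and the part of this overlap was not tested. Hsph1, an HSP110 exchange factor for HSP70, had 188 and 227 CPM in Ell2-KD libraries and 329 and 242 CPM in shGFP libraries. Both depleted libraries were below both controls, but Ell2-KD replicate 2 lay close to shGFP replicate 2, and the log2 change of -0.46 ± 0.25 (SE; 95% interval -1.005 to 0.078) did not pass (edgeR adjusted p = 0.871). It was -0.81 between the replicates 1 and -0.092 between the replicates 2.

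Of the HSP70 partners, Dnaja1 had the largest change of the 10 genes and the smallest p. Dnaja1, a type I J-domain partner that feeds clients to HSP70, had 30.4 and 85.5 CPM in Ell2-KD libraries, against 20.7 and 33.5 CPM in shGFP libraries. Ell2-KD replicate 2 stood alone at the top, while Ell2-KD replicate 1 lay between the 2 controls. The log2 change was 1.09 ± 0.50 (SE; 95% interval -0.022 to 2.19; unadjusted p = 0.054, edgeR adjusted p = 0.859). It was 0.17 without Ell2-KD replicate 2 and 1.67 without Ell2-KD replicate 1. In the GENCODE M21 annotation Dnaja1 also overlaps exons of Smu1 and Gm6297 on the opposite strand and of Mir207 on the same strand. Without a stated strand setting, reads of Dnaja1 and of the opposite-strand genes cannot be told apart there.

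Dnajb1 and Bag3, both sensitive reporters of Hsf1 activity under heat stress, did not differ between groups beyond their spread. Dnajb1, the type II J-domain protein HSP40, had 68.2 and 68.8 CPM in Ell2-KD libraries, which lay between the 59.5 and 76.2 CPM of the shGFP libraries. Its log2 change was 0.015 ± 0.30 (SE; 95% interval -0.66 to 0.69; edgeR adjusted p = 0.999), and -0.14 without shGFP replicate 1. Bag3, a BAG-domain exchange factor that directs HSP70 clients to autophagy, had 27.7 and 40.4 CPM in Ell2-KD libraries and 27.8 and 22.4 CPM in shGFP libraries. Ell2-KD replicate 1 and shGFP replicate 1 were nearly equal, and the log2 change of 0.43 ± 0.43 (SE; 95% interval -0.51 to 1.38) did not pass (edgeR adjusted p = 0.973), being -0.0025 between the replicates 1 and 0.84 between the replicates 2.

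The heat-inducible HSP70 genes were at or near 0. Hspa1a had 1 and 0 counts in Ell2-KD libraries and 0 and 0 in shGFP libraries, and Hspa1b had 0 and 0 counts in Ell2-KD libraries and 1 and 0 in shGFP libraries. These counts are at or under 3, which corresponds to 0.216 to 0.858 CPM of a library (counting error only), so no fold is given. Of the 35-base windows of the Hspa1a transcript, 62.6% also occurred in Hspa1b, and 66.4% of those of Hspa1b in Hspa1a, and how reads that match both copies were counted is not given in the sources used here. Hspb1, the small heat shock protein HSP27, had 1 and 0 counts in Ell2-KD libraries and 0 and 3 in shGFP libraries.

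**Figure D2:**
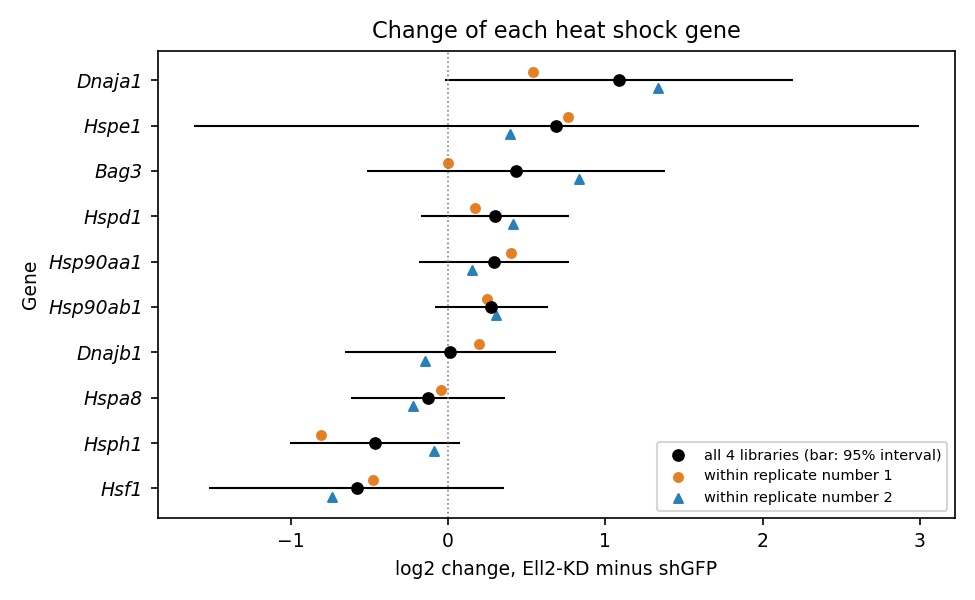
Log2 change of each heat shock gene (x axis), Ell2-KD minus shGFP, from the fit over 4 libraries with its 95% interval (black), and the difference between libraries of replicate number 1 (orange) and 2 (blue). All 10 intervals include 0, and those of Hspe1 (-1.62 to 2.99) and Dnaja1 (-0.022 to 2.19) are the widest.

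The subunits of the mitochondrial chaperonin, transcribed in opposite directions from the stretch printed above, did not keep a fixed ratio. Hspd1, the 60-kDa ring subunit, had 355 and 426 CPM in Ell2-KD libraries, against 316 and 319.9 CPM in shGFP libraries. Both depleted libraries were above both controls, with a log2 change of 0.30 ± 0.21 (SE; 95% interval -0.17 to 0.77; edgeR adjusted p = 0.944), and of 0.16 without Ell2-KD replicate 2. Hspe1, the 10-kDa co-chaperonin that caps the ring, had 137 and 37.2 CPM in Ell2-KD libraries, against 80.7 and 28.2 CPM in shGFP libraries. Both replicates 1 lay above both replicates 2, so the groups overlapped. At both replicate numbers Ell2-KD was above shGFP, by log2 differences of 0.76 and 0.39. The fitted log2 change was 0.69 ± 0.84 (SE; 95% interval -1.62 to 2.99; edgeR adjusted p = 0.990), turning to -0.55 without Ell2-KD replicate 1. Counts of Hspd1 per count of Hspe1 were 2.59 and 11.5 in Ell2-KD, against 3.92 and 11.4 in shGFP. Both replicates 2 thus had nearly the same high ratio and both replicates 1 a low one, and between groups the mean log2 ratio differed by -0.29 (exact permutation test over samples, two-sided, p = 1).

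The gap of Hspe1 between replicates 1 and 2 was 1.88 on the log2 scale in Ell2-KD and 1.51 in shGFP (log2 CPM with a prior count of 2). Of the 11027 genes tested, 63 others were at least as far apart in both groups on the same side. The Hspe1 transcript has 774 bases in GENCODE M21. Over 637 tested genes with transcripts under 1000 bases the median of the same difference was -0.17 in Ell2-KD and -0.54 in shGFP. Exons of Hspd1 and Hspe1 overlap on opposite strands in that annotation, and 52.9% and 55.4% of the 35-base windows of their transcripts also occur in other genes, most of them pseudogenes. The part of transcript length, exon overlap or shared windows in the gap or the ratio was not tested.

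**Figure D3:**
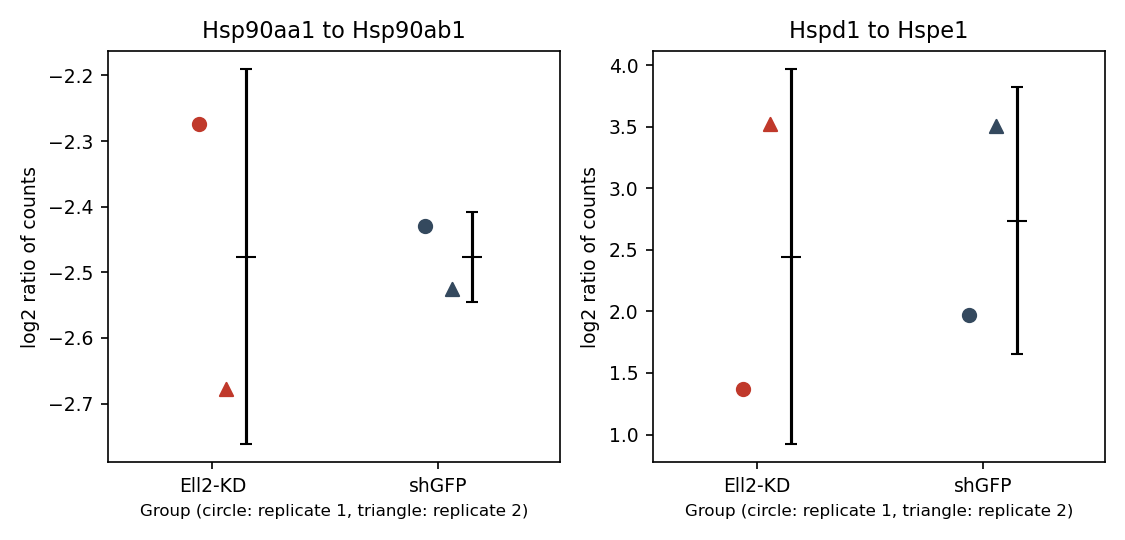
Log2 ratio of counts within each library for Hsp90aa1 to Hsp90ab1 (left) and Hspd1 to Hspe1 (right), Ell2-KD in red and shGFP in dark blue, circles for replicate 1 and triangles for replicate 2, with group means and SDs in black (n = 2 each). On the right the replicates 2 lie together at 3.52 and 3.50 and the replicates 1 lie lower, at 1.37 and 1.97.

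Hsf1, the master factor of the heat shock response, was the only regulator in the set. It had 34.0 and 20.5 CPM in Ell2-KD libraries, against 47.5 and 34.5 CPM in shGFP libraries. Both depleted libraries were below both controls, although Ell2-KD replicate 1 all but touched shGFP replicate 2. The log2 change of -0.58 ± 0.43 (SE; 95% interval -1.52 to 0.36) did not pass (edgeR adjusted p = 0.950), and it lay between -0.997 without Ell2-KD replicate 1 and -0.27 without Ell2-KD replicate 2. Counts in Ell2-KD replicate 2 were only 70, which limits the precision. Hsf2, a relative that acts in development and can pair with Hsf1, had a mean of 55.5 CPM in Ell2-KD and 54.6 CPM in shGFP, with a log2 change of 0.022 ± 0.33. Hsbp1, a small protein that binds heat shock factors, averaged 32.8 CPM in Ell2-KD and 43.0 CPM in shGFP, with a log2 change of -0.39 ± 0.38. Of the 8 heat shock factors and their binding proteins, Hsf1 included, these 3 were tested, 1 positive and 2 negative, with a median of -0.39.

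Per kilobase of transcript, which is the scale for comparing genes, the order of levels was led by Hsp90ab1 in both groups. Its CPM per kb averaged 1461 ± 7.70 in Ell2-KD and 1207 ± 38.8 in shGFP (SD, n = 2 each), and over the 4 libraries it ranked 39th of 9938 tested genes with a known length. Hspa8 followed with 257 ± 55.1 in Ell2-KD and 280.1 ± 36.0 in shGFP, Hsp90aa1 with 204 ± 41.1 in Ell2-KD and 167 ± 13.3 in shGFP, and Hspd1 with 161 ± 20.7 in Ell2-KD and 131 ± 1.10 in shGFP. Neighbours among these 3 overlapped within their SDs in Ell2-KD and did not in shGFP. Hspe1 (113 ± 91.6 in Ell2-KD, 70.4 ± 48.0 in shGFP) and Hsph1 (43.5 ± 5.88 in Ell2-KD, 59.9 ± 12.9 in shGFP) came next and overlapped within their SDs. Hspe1 also overlapped with Hspd1 in Ell2-KD, and in Ell2-KD replicate 1 it was higher, at 178 CPM per kb against 147 for Hspd1. Dnajb1, Hsf1, Bag3 and Dnaja1 averaged between 4.83 and 22.9 CPM per kb in each group. The order among them depends on the lengths used, 5622 bases for Dnaja1, 2996 for Dnajb1, 2562 for Bag3 and 2084 for Hsf1. Before division by length, Dnaja1 averaged 58.0 CPM in Ell2-KD, against 34.1 for Bag3 and 27.2 for Hsf1. In shGFP these means were 27.1, 25.1 and 41.0 CPM. How reads that match a near-identical copy were counted is not stated, and its part in these levels was not tested. Of the transcript, 78.6% of the 35-base windows of Hspa8 and 61.8% of those of Hsp90aa1 also occur in other genes, mostly pseudogenes. The share was 30.5% for Dnaja1, 11.75% for Hsp90ab1, 0.475% for Dnajb1, 0.244% for Hsf1, and 0 for Hsph1 and Bag3.

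The directions of difference of the 10 genes over the 4 libraries are given by replicate number and by group, as a description. None of the 10 passed between groups, and the labels do not say that replicate numbers pair the cultures. For 8 of the 10, all but Hsph1 and Bag3, replicates 1 and 2 differed in the same direction in both groups, as for 59.8% of all tested genes. Also for 8 of the 10, all but Dnajb1 and Bag3, Ell2-KD and shGFP differed in the same direction at both replicate numbers, where 57.3% of all tested genes did. The closest pair by Euclidean distance of centred log2 CPM over the 4 libraries was Hsp90ab1 and Hspd1 (0.20), and Hspe1 and Dnaja1 lay farthest from the others, at 1.44 and 1.10 from their closest member. The 3 tested genes outside the set with the pattern most like that of Hspa8 were Rtn4rl1 (distance 0.022), Srsf6 (0.054) and Wdr82 (0.057), against a median distance of 0.81 over all tested genes. Each of them was higher in replicate 1 than in replicate 2 of both groups, as Hspa8 was, which follows from how they were chosen. With 4 libraries many genes share a pattern, and the distances are given as a description.

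Of the other genes in the chaperone network, no list held a gene that passed (edgeR adjusted p over all genes). Among 9 other HSP70 and HSP110 genes, 4 were tested, 2 with a positive and 2 with a negative change (median -0.067). Hspa14, a ribosome-associated HSP70, averaged 197 ± 12.04 CPM in Ell2-KD and 229 ± 19.4 in shGFP, and Hspa4, an HSP110 relative of Hsph1, 910.2 ± 28.5 in Ell2-KD and 827 ± 46.3 in shGFP. Only 4 of 10 genes listed as small heat shock proteins were tested, all negative with a median of -0.40. Only 1 of them reached a mean of 5 CPM, so the rest lay near the floor. The one with the smallest p, Hspb11, averaged 11.1 ± 0.72 CPM in Ell2-KD and 14.97 ± 2.96 in shGFP. Next in order of p, Hspb6 had 1 and 14 counts in Ell2-KD libraries and 32 and 14 in shGFP libraries. Among 26 other DNAJ genes tested, 14 were positive and 12 negative (median 0.075). Dnajc5, a J-domain protein of secretory vesicles, averaged 132 ± 26.8 CPM in Ell2-KD and 86.9 ± 8.35 in shGFP (edgeR adjusted p = 0.859), and Dnaja2, a type I J-domain protein like Dnaja1, 329 ± 155 in Ell2-KD and 232 ± 8.99 in shGFP (edgeR adjusted p = 0.906). Like Dnaja1, Dnaja2 was highest in Ell2-KD replicate 2, at 439 CPM, against 219 to 239 CPM in the other 3 libraries.

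The factors that serve HSP70 and HSP90 also did not pass. Of 10 tested genes in a list of BAG-domain proteins and other HSP70 cofactors, 8 were positive and 2 negative (median 0.19). Bag5, a BAG-domain protein, averaged 36.4 ± 8.37 CPM in Ell2-KD and 69.1 ± 12.4 in shGFP (log2 change -0.92 ± 0.35, SE; edgeR adjusted p = 0.782), while St13, which joins HSP70 to HSP90, averaged 155 ± 13.6 CPM in Ell2-KD and 119 ± 2.74 in shGFP (edgeR adjusted p = 0.918). Of 26 HSP90 co-chaperone genes tested, 14 were positive and 12 negative (median 0.072). In 10 of the 26 both depleted libraries lay above both controls, where 17.4% of all tested genes did so, and in 3 below, against 18.5%. Both depleted libraries lay below both controls in 9 of 24 tested mitochondrial genes, 8 of 18 ER chaperones and 7 of 8 plasma cell markers. They lay above both controls in 2 of the 24 mitochondrial genes and in 0 of the ER chaperones and plasma cell markers. Of 26 DNAJ genes, 3 lay above and 3 below, and of 17 CCT and prefoldin genes 2 above and 1 below. The BAG list had 2 of 10 above and 1 below, and the HSP70 and HSP110 list 1 of 4 above and 1 below. Small heat shock proteins had 0 of 4 above and 1 below, and the heat shock factor list 0 of 3 above and 2 below. Immediate early genes had 3 of 12 above and 2 below. Rpap3, a scaffold of the R2TP complex that assembles RNA polymerases with HSP90, averaged 77.4 ± 2.68 CPM in Ell2-KD and 35.3 ± 4.50 in shGFP (log2 change 1.13 ± 0.32, SE; unadjusted p = 0.0051, edgeR adjusted p = 0.579). Ptges3, the co-chaperone p23, averaged 67.5 ± 8.88 CPM in Ell2-KD and 40.1 ± 2.21 in shGFP (log2 change 0.75 ± 0.33; edgeR adjusted p = 0.830).

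The CCT chaperonin and prefoldin, which fold actin and tubulin, had 10 positive and 7 negative changes among 17 tested genes (median 0.036). Cct5 averaged 691 ± 66.5 CPM in Ell2-KD and 893 ± 38.9 in shGFP and Cct6a, a subunit of the same ring, 731 ± 93.4 in Ell2-KD and 565 ± 117 in shGFP, so members of 1 complex lay on opposite sides (edgeR adjusted p = 0.871 and 0.906). Mitochondrial chaperones and proteases, a list of 25 that includes Hspd1 and Hspe1, had 8 positive and 16 negative changes among 24 tested (median -0.16). Dnajc11, a J-domain protein of the cristae, averaged 116 ± 30.2 CPM in Ell2-KD and 68.2 ± 10.3 in shGFP (edgeR adjusted p = 0.807), and the protease Htra2 37.9 ± 1.46 in Ell2-KD and 67.8 ± 23.8 in shGFP (edgeR adjusted p = 0.830). ER chaperones had 16 negative changes among 18 tested (median -0.27), led by Manf, a secreted ER stress protein, with 744 ± 62.6 CPM in Ell2-KD and 1217 ± 298 in shGFP (edgeR adjusted p = 0.621), and Dnajc10, an ER reductase with a J domain, with 238 ± 45.2 CPM in Ell2-KD and 364 ± 77.0 in shGFP (edgeR adjusted p = 0.807). Immediate early genes, a readout of acute signalling, had 4 positive and 8 negative changes (median -0.14). Fos averaged 10.9 ± 3.38 CPM in Ell2-KD and 3.50 ± 0.45 in shGFP (edgeR adjusted p = 0.868), and Ier5, another early response gene, 57.9 ± 0.46 in Ell2-KD and 80.0 ± 4.02 in shGFP (edgeR adjusted p = 0.906). With 1 library left out, the median changed sign for the HSP70, DNAJ, BAG, co-chaperone, CCT and immediate early lists, and it did not for the small heat shock protein, mitochondrial, heat shock factor and ER lists. That of the small heat shock proteins was -0.093 without Ell2-KD replicate 1 and -1.37 without Ell2-KD replicate 2. That of the heat shock factor list was -0.13 without shGFP replicate 1, -0.27 without Ell2-KD replicate 2 and -0.61 without shGFP replicate 2. The mitochondrial median was -0.27 without Ell2-KD replicate 1, and the ER median was -0.17 without shGFP replicate 1. It became 0.12 for the HSP70 list, -0.0098 for the co-chaperones and 0.11 for the immediate early genes without Ell2-KD replicate 1, -0.16 for the DNAJ list and -0.10 for the CCT list without Ell2-KD replicate 2, and -0.10 for the BAG list without shGFP replicate 2.

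**Figure D4:**
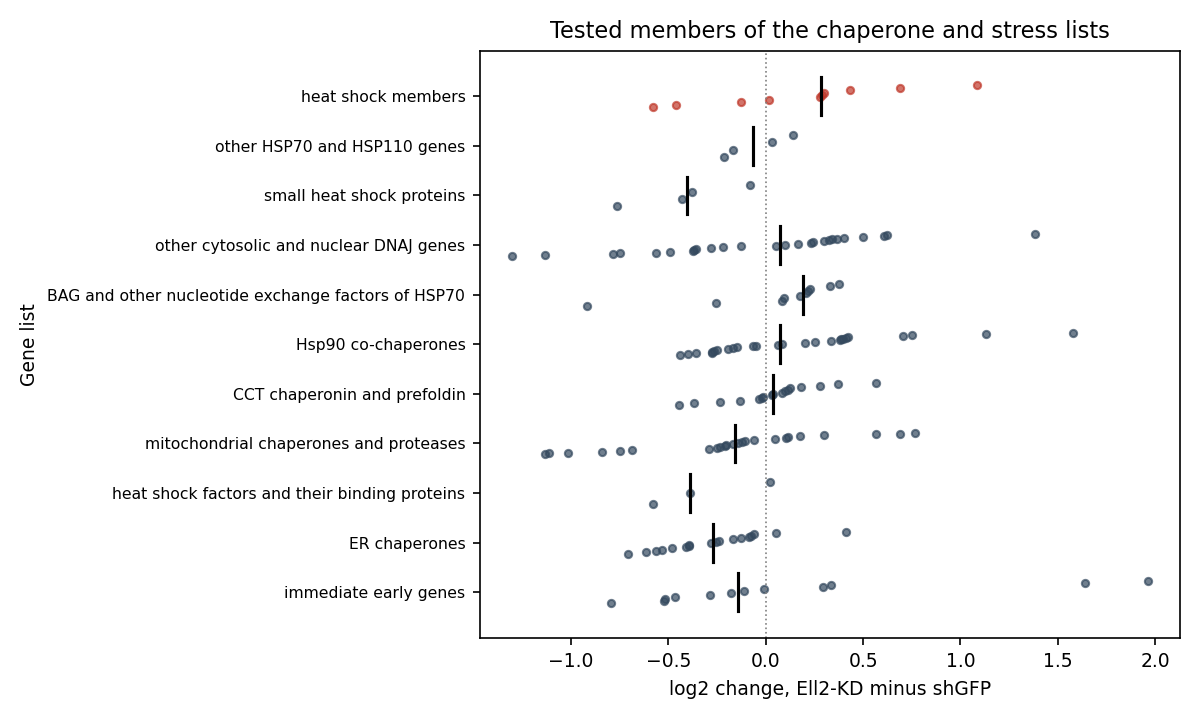
Log2 change (x axis), Ell2-KD minus shGFP, of each tested gene in the 10 heat shock genes (red) and in 10 other chaperone and stress lists (dark blue), with the list median as a black bar. The heat shock genes have a median of 0.28 and the ER chaperones one of -0.27.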

How the data were processed

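RNA from the 4 cultures was purified on RNeasy columns and read on a SOLiD sequencer. For every library the authors deposited raw counts by gene symbol, which are whole numbers with unequal totals. DESeq 1.4.1, HTSeq 0.5.3, SAMtools 0.1.11 and the build mm9 are named by the submitters' processing notes. For the aligner, the annotation and the strand setting, nothing is given in the sources used here.

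The counts entered edgeR 4.0.16 under R 4.3.3 (filterByExpr, minimum count 10 and total 15; TMM; robust glmQLFit and glmQLFTest, two-sided, group as the only term; Benjamini-Hochberg over all 11027 genes). The SE is the log2 change divided by the square root of F, and intervals use the same SE. DESeq2 1.42.0 was an alternative. The model was also run on simulated counts with known changes. The share of changes it recovered is not given here, so its power for changes of the size seen is not stated. Transcript lengths, exon overlaps and 35-base windows came from GENCODE M21 and promoters from RefSeq, both of GRCm38, so no gene coordinates of the counts are given. The length of a gene is that of its longest APPRIS principal transcript, or else of its longest transcript.

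The 10 genes and all lists were chosen with earlier results of these data known. Named genes were the 10, Ell2, the 2 members of each list with the smallest p, any that passed, and the 3 closest to Hspa8; Hspa1a, Hspa1b, Hspb1, Hsf2 and single markers were added after their values were seen. RefSeq protein sequences were not used here.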

Additional observations from a re-analysis of the deposited data

How the results depend on the processing

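The number of genes that passed over all genes was 5, and it was 2 with library totals in place of TMM, 46 with DESeq2, 22 with no filter on low counts and 28 with the replicate number as a block, while leaving out 1 library gave 1 to 6. None of the 10 heat shock genes passed under any of the 10 alternatives, whose smallest adjusted p was 0.226, for Dnaja1 without Ell2-KD replicate 1. Where 1 library is left out, the lone library of its group is assumed to vary like the other group, and the same genes were tested. The median log2 change of the 10 genes, 0.28, was 0.33 with no filter and 0.051 to 0.31 with 1 library left out, lowest without Ell2-KD replicate 1. With 1 library left out, Hspa8 ranged from -0.36 to 0.078, Dnajb1 from -0.14 to 0.20 and Hspe1 from -0.55 to 1.65. The difference in log2 ratio of Hsp90aa1 to Hsp90ab1, 0.0013, was -0.152 within replicate number 2 and -0.20 to 0.20 with 1 library left out. That of Hspd1 to Hspe1, -0.29, was 0.014 within replicate number 2 and -1.37 to 0.78 with 1 library left out. The causes were not tested. The labels do not say that replicate numbers pair the cultures. Deviations of same-numbered libraries from their group means correlated at 0.31 across 11027 genes. With the replicate block 3 of the 10 genes, Dnaja1, Hspe1 and Hsph1, had an unadjusted p under 0.05. Of all tested genes 10.6% had one, and 0 of the 10 passed. In the shallow Ell2-KD replicate 2, Hsf1 had 70 counts, Hspe1 127 and Bag3 138, which limits their precision.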
